A study of Mus musculus with 5 samples.

Results

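The cyclin-dependent kinase inhibitors *Cdkn1a*, *Cdkn1b*, *Cdkn1c*, *Cdkn2b* and *Cdkn2c*, the D cyclins *Ccnd1*, *Ccnd2* and *Ccnd3*, the kinase gene *Wee1* and the growth regulator *Myc* were followed in mouse dorsal skin that the labels stage as telogen, the phase in which hair follicles rest. Every probe set that the platform annotation assigns to 1 of these 10 genes alone was taken, which gave 23 of the 45101 probe sets on the array. Skin from 2 *Clock* mutants and from 3 wild-type (WT) littermates was collected at postnatal day 23, with 1 Affymetrix array per mouse. *Clock* mutant replicate 1 was male, whereas *Clock* mutant replicate 2 and the 3 WT mice were female. Both genotypes were on a C57BL/6J background per the study's methods, and no treatment is named. The *Clock* allele, a point mutation present in every tissue, changes how the *Clock* transcript is spliced. CLOCK pairs with BMAL1 to activate genes that carry E-boxes. The labels give neither the number of mutant copies nor the time of day of collection. The comparison asks how regulators of the cell cycle stand in *Clock* mutant skin against WT skin at that labelled stage. Most markers of the growing hair follicle were high in *Clock* mutant replicate 1. *Krt25*, an inner root sheath keratin, had the largest difference of them. Its intensities were 1932 and 226.8 in *Clock* mutant skin, against 282.9, 34.3 and 56 in WT skin. *Lef1*, *Foxn1*, *Dlx3* and *Gata3* lay inside the WT range in that mouse. The keratins of this list that were bright enough to be tested were all highest in *Clock* mutant replicate 1, while *Krt34*, *Krt35* and *Krt86* were too dim. By the tested keratins only, the label was not borne out equally by all 5 arrays.

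Hair follicles leave telogen when keratinocytes of the secondary hair germ begin to divide. D cyclins bind CDK4 and CDK6 and start the phosphorylation of RB that lets a cell pass from G1 into S phase. The INK4 inhibitors, encoded by *Cdkn2b* (p15) and *Cdkn2c* (p18), bind CDK4 and CDK6 and block that step. The CIP/KIP inhibitors p21, p27 and p57, encoded by *Cdkn1a*, *Cdkn1b* and *Cdkn1c*, restrain CDK2 as well. WEE1 holds back mitosis by phosphorylating CDK1, and its gene is a known target of CLOCK and BMAL1 in mouse liver. MYC drives growth and entry into the cell cycle.

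Of these genes, *Wee1* stood lowest against WT. Both of its probe sets were below every WT array on both *Clock* mutant arrays, at 0.586 and 0.672 of the WT level, and neither passed the adjusted threshold. *Cdkn1a*, which encodes p21, had nearly the same level in both genotypes at its brighter probe set. No inhibitor and no D cyclin passed the adjusted threshold. The signs of most of them turned without *Clock* mutant replicate 1, though several of these differences were near 0 and some also turned without other arrays. *Myc* was slightly lower on both *Clock* mutant arrays and did not pass.

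No start-site window was available here for *Wee1*, *Myc*, *Ccnd1*, *Ccnd2* and *Cdkn1c*, so these genes were not searched. Start-site windows of *Cdkn1a*, *Cdkn1b*, *Cdkn2b* and *Cdkn2c* were used, as 6 windows of 300 bases, each running from 250 bases before an annotated start to 50 after it (RefSeq, GRCm38.p6). They were searched on both strands for CACGTG, the E-box that CLOCK and BMAL1 bind, for AGGTCA, the core of the elements bound by ROR and REV-ERB receptors, and for the p53 consensus decamer. The stretches below show every match in these windows, in capitals, since E-box, REV-ERB and p53 input is what the clock and the DNA damage response are known to bring to such genes.
*Cdkn2c*, E-box, chr4:109665323-109665352, minus strand: ttttgctgaataatCACGTGtgaatcgagg
*Cdkn2c*, AGGTCA on the opposite strand, chr4:109665535-109665564, minus strand: tgttgtctgagcTGACCTagtcctttaagt
*Cdkn1a*, p53 consensus decamers, chr17:29090894-29090949, plus strand: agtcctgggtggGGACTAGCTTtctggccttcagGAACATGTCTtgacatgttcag

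The E-box of *Cdkn2c* lay 35 to 40 bases into the transcript of the start at position 109665372 of chromosome 4. CACGTG was present in 1 of the 6 windows and in 7.15% of all 32851 windows of the same length. AGGTCA was present in 1 of the 6 windows, that of the same *Cdkn2c* start, and in 16.26% of all windows. The *Cdkn1a* decamers lay 73 to 64 and 51 to 42 bases before the more upstream of its 2 starts, at position 29090979 of chromosome 17, and 8.36% of all windows held such a decamer. These matches are descriptions of the letters in the windows and not of binding.

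Values are MAS5 intensities, and a difference is the log2 intensity in *Clock* mutant minus that in WT skin with its standard error (SE) from limma. A probe set was tested if its mean log2 intensity over the arrays reached the 40th percentile, an intensity of 56.7, which 20 of the 23 probe sets did. Of the 20, 0 passed an adjusted p of 0.05, against 24 of all 27022 tested probe sets (0.0888%, with 0.0148% higher and 0.074% lower), and a Cyber-T style test also gave 0. At an unadjusted p under 0.05 limma gave 2, both *Wee1* and both lower in *Clock* mutant skin, and the background at that threshold was 10.8% of all probe sets (6.71% lower, 4.09% higher). That split was 1106 higher and 1812 lower over all probe sets, and 2357 higher and 977 lower after median centring of the arrays. The groups did not overlap in 4 of the 20, with the *Clock* mutant arrays above WT in 1 (*Cdkn2c*) and below it in 3 (*Wee1* in both and *Myc*). Over all probe sets the groups did not overlap in 27.9%, with *Clock* mutant above in 12.8% and below in 15.1%. The median difference over the 20 was -0.053, with 8 positive and 12 negative. Over all tested probe sets the median was -0.017, and 53.5% were negative. Among the 8 was *Ccnd2* 1416123_at, whose mean log2 intensity in WT skin was under the filter, so its sign carries no weight. With 2 against 3 arrays an exact two-sided permutation test cannot give a p below 0.2, so no such test was used for a call.

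*Clock* itself had intensities of 1105 and 1132 in *Clock* mutant skin, against 1201, 1111 and 1162 in WT skin at its brightest probe set (difference -0.049, SE 0.093, adjusted p = 0.878). Its 3 other probe sets differed by 0.036, 0.25 and -0.53, and none passed (adjusted p = 0.928, 0.568 and 0.4). The last, the dimmest, gave 120.8 and 154.7 in *Clock* mutant skin, against 187.9, 224.4 and 180.9 in WT skin, without overlap. Whether any of them reads the altered part of the transcript was not tested. *Xist*, expressed from the inactive X, was at 65.2 in the male and at 13150 to 13830 in the 4 females, as the sex labels require. All 7 epidermal and all 7 dermal fibroblast markers examined, among them *Krt14* and *Col1a1*, passed the intensity filter, and so did all 7 muscle markers. Median differences of these lists and of adipocyte, macrophage, T cell and endothelial markers lay between -0.066 and 0.12, and that of 4 melanocyte markers was -0.27. The melanocyte array medians were 0.10 and -0.54 in *Clock* mutant skin, against 0.13, -0.11 and -0.02 in WT skin. Only *Clock* mutant replicate 2 was thus below the WT arrays. In bulk skin, fewer cells of a type and less RNA per cell cannot be told apart. Array medians lay between 105.8 and 117.9, with the lowest on *Clock* mutant replicate 1, and correlations between arrays between 0.95 and 0.96.

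*Cdkn1a* arrests cells in G1 when p53 or other signals induce it. Its brighter probe set, 1424638_at, had intensities of 6004 and 6399 in *Clock* mutant skin, against 5922, 6550 and 6224 in WT skin. The *Clock* mutant values lay inside the WT range. The means were 6201 ± 279 (SD, n = 2) and 6232 ± 314 (SD, n = 3), and the difference was -0.0066 (SE 0.075, adjusted p = 0.982). Its 95% interval ran from -0.18 to 0.16, or 0.885 to 1.12 of the WT level, and median centring moved the difference to 0.08. The dimmer probe set, 1421679_a_at, gave 383.5 and 798.1 in *Clock* mutant skin, against 829.2, 975.6 and 552 in WT skin. Only *Clock* mutant replicate 1 lay below the WT arrays there, and the difference of -0.47 (SE 0.31, adjusted p = 0.605) became 0.06 without that array. The interval of this probe set, -1.16 to 0.23, was much wider than that of the brighter one. Which transcript of *Cdkn1a* each probe set reads was not tested.

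*Cdkn1b* (p27) keeps resting cells out of the cycle. Probe set 1434045_at had intensities of 767.4 and 1147 in *Clock* mutant skin, against 1034, 1096 and 1182 in WT skin. The lowest of the 5 arrays was *Clock* mutant replicate 1, and *Clock* mutant replicate 2 lay inside the WT range. The difference was -0.23 (SE 0.16, adjusted p = 0.619) with all arrays, and 0.06 without *Clock* mutant replicate 1. The other *Cdkn1b* probe set, 1419497_at, was under the filter on every array, at 5.11 and 18.8 in *Clock* mutant skin and 9.72 to 34.5 in WT skin.

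*Cdkn1c* (p57), an imprinted inhibitor expressed from the maternal allele, had the opposite pattern. Its intensities were 1929 and 1162 in *Clock* mutant skin, against 1420, 1248 and 1127 in WT skin. The highest array, above all WT values, was *Clock* mutant replicate 1, while *Clock* mutant replicate 2 lay among them. The difference of 0.25 (SE 0.19, adjusted p = 0.661) became -0.12 without *Clock* mutant replicate 1. In that mouse the log2 intensity minus the WT mean was thus 0.62 for *Cdkn1c* and -0.52 for *Cdkn1b*.

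The INK4 genes differed in sign from each other. *Cdkn2b* (p15), which TGF beta is known to induce, had intensities of 258.7 and 232.9 in *Clock* mutant skin, against 250.6, 295.4 and 419.8 in WT skin. WT replicate 3 was far above the other 4 arrays, and the difference was -0.36 (SE 0.22, adjusted p = 0.571). Without WT replicate 3 it was -0.15, and it was negative in each of the 14 alternatives, down to -0.52. *Cdkn2c* (p18), whose window held the E-box, gave 2456 and 2180 in *Clock* mutant skin, against 2166, 1982 and 2092 in WT skin. Both *Clock* mutant arrays were above the 3 WT arrays, *Clock* mutant replicate 2 only slightly. The difference was 0.15 (SE 0.09, adjusted p = 0.562), with an interval of -0.05 to 0.36, and it was positive in each of the 14 alternatives, from 0.07 to 0.24. For both INK4 genes, alternatives that change only the filter, the prior or the test leave the difference as it was and could not turn its sign.

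**Figure D1:**
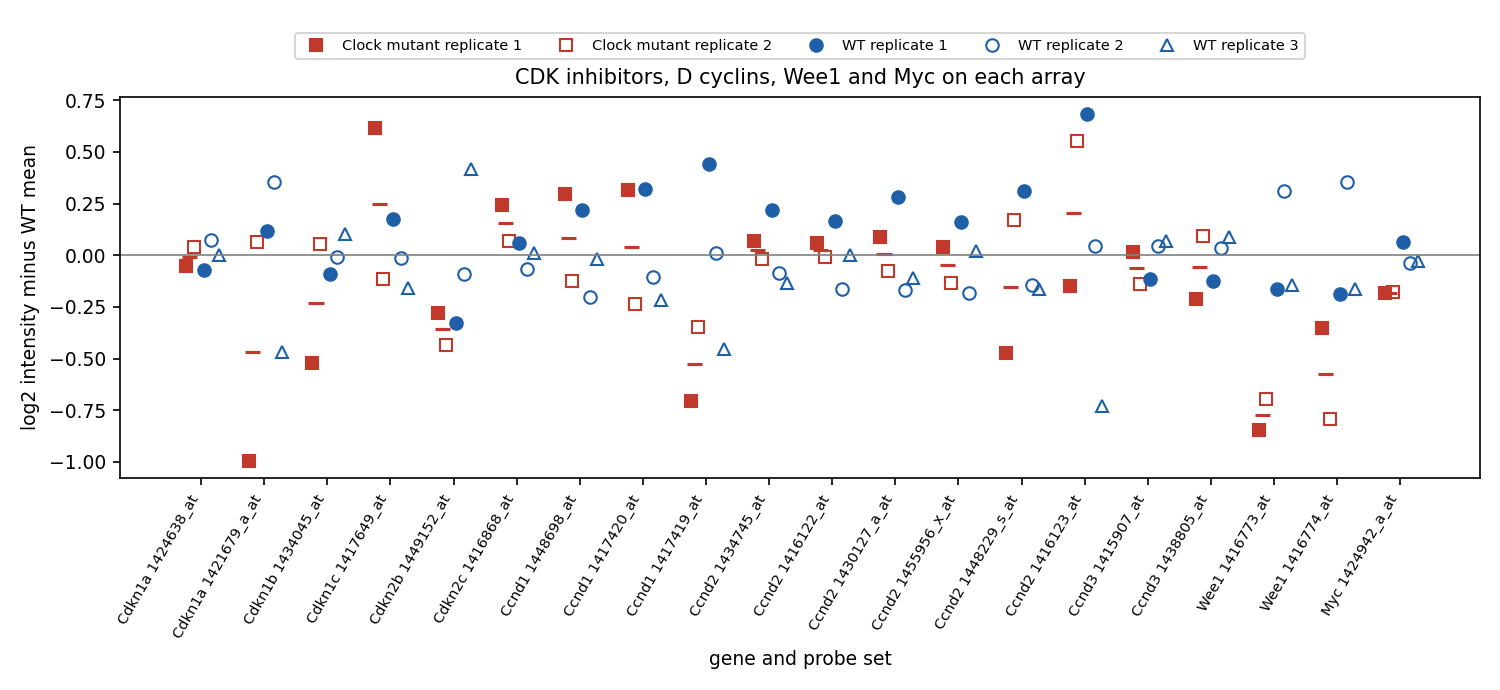
Log2 MAS5 intensity minus the WT mean, on the vertical axis, for each of the 20 tested probe sets along the horizontal axis. Red squares are *Clock* mutant mice (filled, replicate 1; open, replicate 2), blue symbols the 3 WT mice, and the red line is the *Clock* mutant mean. Both red squares lie below every blue symbol for *Wee1* and *Myc* and above them for *Cdkn2c*, while the squares of *Cdkn1b* and *Cdkn1c* lie apart from each other.

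The D cyclins lay near the WT level at their brightest probe sets. *Ccnd1*, the D cyclin that WNT and growth factor signals raise in many cell types, had intensities of 1665 and 1243 in *Clock* mutant skin, against 1579, 1181 and 1339 in WT skin at 1448698_at. The highest array was *Clock* mutant replicate 1 and the lowest WT replicate 2, with *Clock* mutant replicate 2 inside the WT range, and the difference was 0.08 (SE 0.15, adjusted p = 0.875) with an interval of -0.26 to 0.43. The second *Ccnd1* probe set, 1417420_at, gave 878.3 and 599.2 in *Clock* mutant skin, against 879.9, 656.7 and 608.1 in WT skin, a difference of 0.04 (SE 0.20, adjusted p = 0.958). The dimmest, 1417419_at, gave 134.6 and 172.1 in *Clock* mutant skin, against 297.4, 221.2 and 160.3 in WT skin. It differed by -0.53 (SE 0.26, adjusted p = 0.501), and *Clock* mutant replicate 2 overlapped WT replicate 3. The 3 probe sets of *Ccnd1* thus did not agree in sign, and their mean differed by -0.13 (adjusted p = 0.799).

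*Ccnd2*, a D cyclin whose gene MYC activates directly, had 6 tested probe sets, with differences between -0.15 and 0.20 and adjusted p-values between 0.831 and 0.99. At the brightest, 1434745_at, intensities were 3252 and 3059 in *Clock* mutant skin, against 3608, 2913 and 2824 in WT skin. The *Clock* mutant mean was 3155 ± 136 (SD, n = 2) and the WT mean 3115 ± 429 (SD, n = 3), with an interval of 0.855 to 1.21 of the WT level. WT replicate 1 was the highest of the 5 arrays in 6 of the 6 probe sets of *Ccnd2*. At 1416122_at intensities were 2591 and 2478 in *Clock* mutant skin, against 2793, 2221 and 2488 in WT skin (difference 0.025). At 1430127_a_at they were 1723 and 1536 in *Clock* mutant skin, against 1966, 1439 and 1502 in WT skin (difference 0.0063). In both, the *Clock* mutant arrays lay inside the WT range. At 1455956_x_at the intensities were 907 and 804 in *Clock* mutant skin, against 985.8, 778.1 and 894.4 in WT skin (difference -0.047). At 1448229_s_at they were 291.2 and 455.9 in *Clock* mutant skin, against 501.5, 366.1 and 361.5 in WT skin (difference -0.15). Only the last of these had an array outside the WT range, *Clock* mutant replicate 1. The dimmest tested probe set, 1416123_at, gave 50.3 and 81.7 in *Clock* mutant skin, against 89.5, 57.6 and 33.6 in WT skin. Its interval of 0.584 to 2.27 of the WT level is too wide to compare the genotypes. With a mean log2 intensity under the filter in WT skin, it was tested only through its *Clock* mutant values. Its difference of 0.20, the upper end given above, thus carries no weight. A seventh probe set, 1416124_at, was under the filter, at 32.8 and 20.1 in *Clock* mutant skin and 20.3, 60.8 and 20.8 in WT skin.

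*Ccnd3* had intensities of 1705 and 1536 in *Clock* mutant skin, against 1561, 1742 and 1772 in WT skin at 1415907_at. The groups overlapped, and the difference was -0.06 (SE 0.098, adjusted p = 0.853), within 0.822 to 1.12 of the WT level. The dimmer 1438805_at gave 183.2 and 226.9 in *Clock* mutant skin, against 194.9, 217.9 and 225.6 in WT skin. Both differences turned positive under median centring. The remaining *Ccnd3* probe set, 1444323_at, was under the filter, at 49.8 and 25.4 in *Clock* mutant skin and 19.6 to 47.9 in WT skin.

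*Wee1* encodes the kinase that delays mitosis. At 1416773_at its intensities were 668 and 742.8 in *Clock* mutant skin, against 1073, 1491 and 1087 in WT skin. Both *Clock* mutant arrays were clearly below the lowest WT array, and WT replicate 2 stood above the other WT arrays. The means were 705.4 ± 52.9 (SD, n = 2) and 1217 ± 238 (SD, n = 3), a difference of -0.77 (SE 0.15), or 0.586 of the WT level with a 95% interval of 0.462 to 0.743. With limma the unadjusted p was 0.000653, rank 110 of 27022 probe sets, and the adjusted p was 0.16.

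The second *Wee1* probe set, 1416774_at, gave 553.6 and 407.6 in *Clock* mutant skin, against 619.8, 901.8 and 630.7 in WT skin. Again both *Clock* mutant arrays were below every WT array, here with *Clock* mutant replicate 2 lowest, and WT replicate 2 was again the highest. The difference was -0.57 (SE 0.19), or 0.672 of the WT level with an interval of 0.497 to 0.91 (limma, unadjusted p = 0.0159, adjusted p = 0.371). The mean of both probe sets differed by -0.67 (SE 0.16, adjusted p = 0.198). The 2 probe sets read the same RNA on the same arrays and are not independent measurements of the mice.

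Within the 4 females, that is without *Clock* mutant replicate 1, *Wee1* differed by -0.69 at 1416773_at and -0.79 at 1416774_at, each with an adjusted p of 0.552. The lone *Clock* mutant array was assumed in that fit to vary like the WT arrays. Across the 14 alternatives, the difference of 1416773_at ran from -0.85 to -0.62, with an unadjusted limma or Cyber-T p under 0.05 in 14 of 14. That of 1416774_at ran from -0.79 to -0.35, under 0.05 in 12 of 14. The exceptions were the limma fits without *Clock* mutant replicate 2, where the difference was -0.35, and without WT replicate 2, where it was -0.40.

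**Figure D2:**
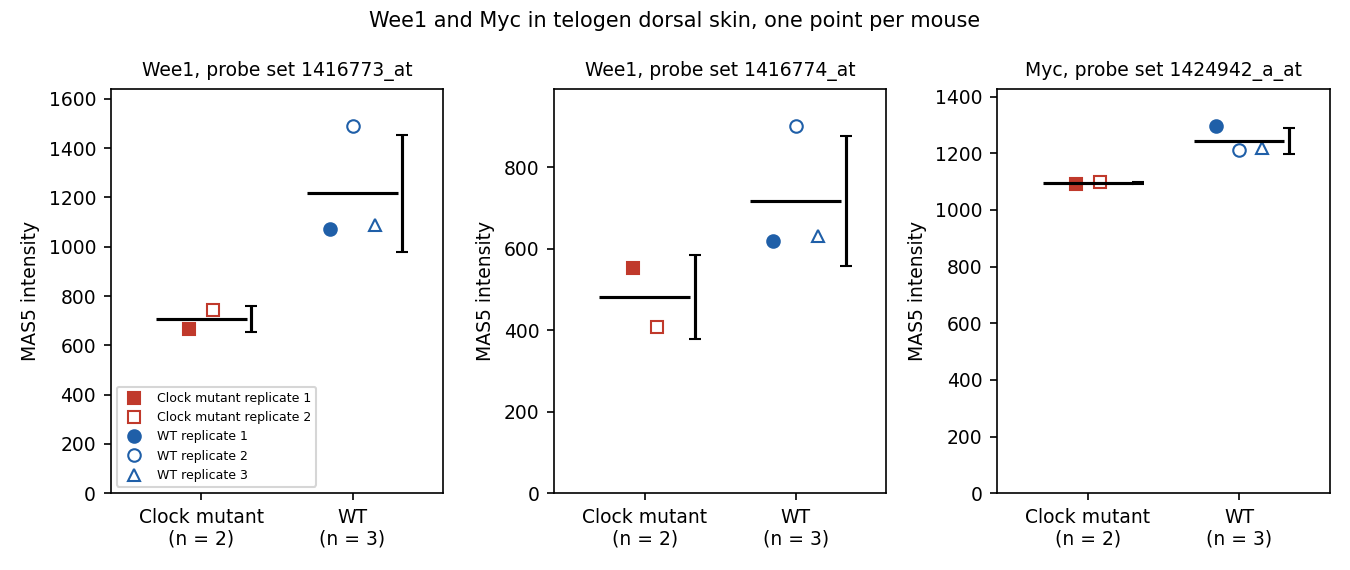
MAS5 intensity, on vertical axes that start at 0, for both *Wee1* probe sets and for *Myc* in the 2 *Clock* mutant mice (red) and the 3 WT mice (blue). Points are mice, lines means and bars SD. In each panel both *Clock* mutant mice are below all 3 WT mice, by a wide margin for *Wee1* 1416773_at and a narrow one for *Myc*.

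*Myc*, with 1 probe set, had nearly equal intensities of 1093 and 1099 in *Clock* mutant skin, against 1297, 1212 and 1219 in WT skin. Both *Clock* mutant arrays were below every WT array. The means were 1096 ± 3.59 (SD, n = 2) and 1243 ± 47.2 (SD, n = 3), and the difference was -0.18 (SE 0.091), or 0.882 of the WT level with an interval of 0.765 to 1.02. The adjusted p was 0.512. The difference was negative in each of the 14 alternatives, between -0.20 and -0.09. Those that change only the filter, the prior or the test leave the difference as it was and could not turn its sign.

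**Figure D3:**
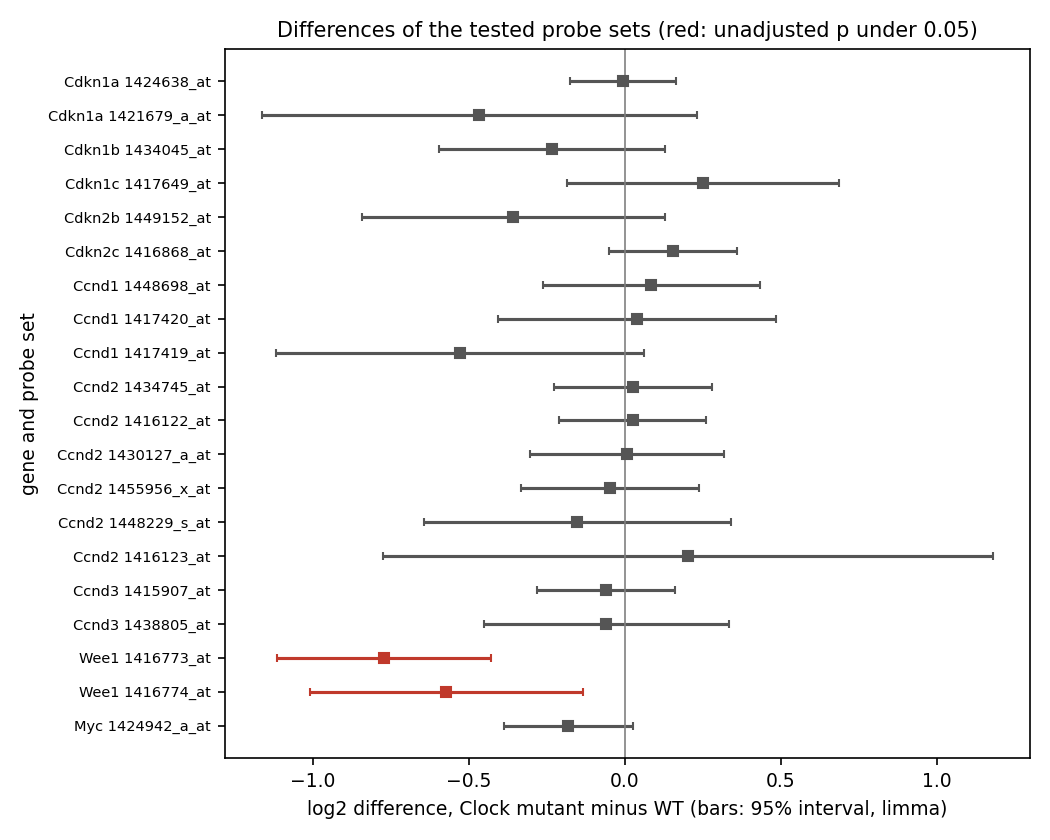
Log2 difference, *Clock* mutant minus WT, with its 95% interval from limma, on the horizontal axis, for each of the 20 tested probe sets. Red marks an unadjusted p under 0.05. The 2 *Wee1* probe sets are the red ones, at -0.77 and -0.57, and all other intervals include 0.

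The precision differed between the genes. The 95% interval stayed within 1.5-fold of the WT level in either direction for 11 of the 20 probe sets (55%, and 59.9% of all probe sets) and within 2-fold for 15 (75%, and 90.3% of all). The brightest probe sets of *Cdkn1a*, *Ccnd2* and *Ccnd3* were among the 11. For *Cdkn1c* the interval ran from 0.879 to 1.61 of the WT level, so a slightly lower and a moderately higher level in *Clock* mutant skin both lay inside it.

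The 2 *Clock* mutant mice differed from each other in several of these genes. In 8 of the 20 probe sets (40%, and 37.2% of all probe sets) the gap between the 2 mice was wider than the whole WT range. Leaving out *Clock* mutant replicate 1 turned the sign of 11 of the 20 differences (55%, and 21.4% of all), and leaving out *Clock* mutant replicate 2 turned 3 (15%, and 14.8% of all). Both tested probe sets of *Cdkn1a* and those of *Cdkn1b* and *Cdkn1c* were among the 11. Several of the 11 were differences near 0, such as -0.0066 for *Cdkn1a* 1424638_at and 0.0063 for *Ccnd2* 1430127_a_at. The signs of these 2 also turned without WT replicate 2. *Clock* mutant replicate 1 was the only male, and its sex and its other properties cannot be told apart.

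Proliferation genes were high in that mouse. The median over 24 proliferation genes was 0.45 and -0.17 in *Clock* mutant replicates 1 and 2 on the log2 scale relative to the WT mean, against 0.19, -0.05 and -0.11 in the WT mice. Their summed intensity was 26010 and 18300 in *Clock* mutant skin, against 23240, 19310 and 19140 in WT skin. The smallest p-values of that list belonged to *Gmnn*, an inhibitor of replication licensing (difference 0.37, adjusted p = 0.52), *Mcm7*, a helicase subunit (0.13, adjusted p = 0.647), and *Cdc20*, an activator of the anaphase-promoting complex (0.21, adjusted p = 0.703). By their medians, markers of the growing hair follicle had the same order of mice within each genotype with a wider spread. By summed intensity, WT replicates 2 and 3 changed places. Of 14 tested, 11 differences were positive and 3 negative. With limma 8 were higher and 0 lower at an unadjusted p under 0.05, and 0 passed the adjusted threshold. Their medians were 1.95 and 0.37 in *Clock* mutant skin, against 0.33, -0.17 and -0.21 in WT skin. Summed intensities were 11910 and 5659, against 5555, 4141 and 4598. The inner root sheath genes *Krt28* (difference 1.54, adjusted p = 0.181), *Tchh* (1.74, adjusted p = 0.31) and *Krt73* (2.03, adjusted p = 0.311) had the smallest p-values. *Krt73* was at 83.5, 39.3 and 35.2 in WT skin, with a mean log2 intensity under the filter there. It was tested only through its *Clock* mutant values of 413.9 and 95, so its place among the 8 carries no weight. The shaft and root sheath markers *Krt34*, *Krt35*, *Krt86* and *Padi3* of that list were under the intensity filter. *Clock* mutant replicate 1 and WT replicate 1 were the highest of their genotype in both lists, and WT replicate 1 was also the array with the most *Ccnd2*. Their part in the values of *Cdkn1b*, *Cdkn1c* and *Ccnd2* was not tested.

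The partners of these genes were taken as lists, with 1 probe set per gene, the brightest. Of the 154 tested genes of 16 lists, marker lists included, 0 passed the adjusted threshold with limma or with the Cyber-T style test, beside 15 of 12955 genes over the array (0.116%), and 17 were higher and 9 lower at an unadjusted limma p under 0.05. At an unadjusted p under 0.05 the background over genes was 5.24% higher and 4.78% lower, and the median over all genes was 0.016, with 53.6% positive.

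Around the D cyclins, 22 of the 23 CDK, cyclin, RB and E2F genes were tested, and *Cdkn2a* was under the filter. At the unadjusted level 1 gene was higher and 1 lower, and the median difference was 0.075 with 15 positive and 7 negative. *E2f5*, a repressive E2F, had intensities of 384.3 and 428.7 in *Clock* mutant skin, against 531.3, 617.2 and 479.6 in WT skin (difference -0.41, SE 0.14, adjusted p = 0.375). *Ccna2*, the cyclin of S and G2 phase, differed by 0.40 (adjusted p = 0.454) and *E2f1*, which opens S phase, by 0.39 (adjusted p = 0.47). Both *Clock* mutant arrays were above WT for *E2f1*, but only *Clock* mutant replicate 1 was for *Ccna2*. The array medians of this list were 0.13 and -0.03 in *Clock* mutant skin, against 0.03, 0.03 and -0.08 in WT skin.

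Around *Wee1*, 8 genes of G2 and mitosis were tested, with 6 differences positive and 2 negative and 0 past an unadjusted limma p of 0.05. *Cdc25b*, a phosphatase that removes the phosphate WEE1 adds, differed by 0.20 (adjusted p = 0.552). *Cdk1*, the substrate of WEE1, differed by 0.28 (adjusted p = 0.652), and *Chek1*, a checkpoint kinase, by -0.36 (adjusted p = 0.668). Intensities of *Cdk1* were 1239 and 685.4 in *Clock* mutant skin, against 817.5, 728.8 and 730 in WT skin. *Clock* mutant replicate 1 was thus above and *Clock* mutant replicate 2 below every WT array. For *Chek1* only *Clock* mutant replicate 2 was below the WT arrays. The array medians were 0.39 and -0.30 in *Clock* mutant skin, against 0.09, 0.03 and -0.06 in WT skin. The median of the list was thus highest in *Clock* mutant replicate 1 and lowest in *Clock* mutant replicate 2, though *Cdc25b* was above every WT array in both. *Wee1* was below every WT array in both mice.

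The MYC network, with MAX, MXD and MGA as partners or competitors, had 4 of 11 differences positive and 7 negative, with 0 higher and 1 lower at the unadjusted level. That gene was *Mga* (difference -0.34, adjusted p = 0.44), followed by *Mxd1* (-0.29, adjusted p = 0.558) and *Mxd4* (0.12, adjusted p = 0.625), which compete with MYC for MAX. The array medians were -0.10 and -0.05 in *Clock* mutant skin, against -0.0052, -0.02 and -0.02 in WT skin.

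Of 12 genes for the turnover of p27 and cyclin D, 11 were tested, with 6 positive and 5 negative. *Fbxo4*, a ubiquitin ligase subunit known to act on cyclin D1, was the 1 past the unadjusted level. Its intensities were 598.3 and 410.1 in *Clock* mutant skin, against 339.2, 329.3 and 306 in WT skin (difference 0.61, SE 0.17, adjusted p = 0.31). Both *Clock* mutant arrays were above WT, *Clock* mutant replicate 1 by far. *Cul4a*, a ubiquitin ligase scaffold, differed by -0.29 (adjusted p = 0.528) and *Rnf123*, a ubiquitin ligase that acts on p27, by 0.22 (adjusted p = 0.557).

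Of 15 tested genes of p53 and its targets, the set in which *Cdkn1a* is the best known, 2 were higher and 4 lower at the unadjusted level. *Phlda3*, an inhibitor of AKT, had intensities of 1845 and 1964 in *Clock* mutant skin, against 2600, 2580 and 2341 in WT skin (difference -0.40, SE 0.087, adjusted p = 0.204). *Btg2*, an antiproliferative gene, differed by -0.42 (adjusted p = 0.281), and *Zmat3*, an RNA-binding protein gene, by 0.31 (adjusted p = 0.344). The median of the list was 0.027, near that of all genes.

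Among 9 tested genes that act on *Cdkn1a* or *Cdkn1b*, the REV-ERB genes stood apart in opposite directions. *Nr1d1* (REV-ERB alpha), a repressor known to act on *Cdkn1a* in mouse liver, had intensities of 466.7 and 428 in *Clock* mutant skin, against 308.4, 259 and 289.2 in WT skin (difference 0.65, SE 0.14, adjusted p = 0.2). *Nr1d2* (REV-ERB beta) had 2071 and 2441 in *Clock* mutant skin, against 3384, 3211 and 3097 in WT skin (difference -0.52, SE 0.094, adjusted p = 0.124). The groups did not overlap in either gene, and neither passed the adjusted threshold. *Foxo3*, an activator of *Cdkn1b*, differed by 0.22 (adjusted p = 0.388).

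**Figure D4:**
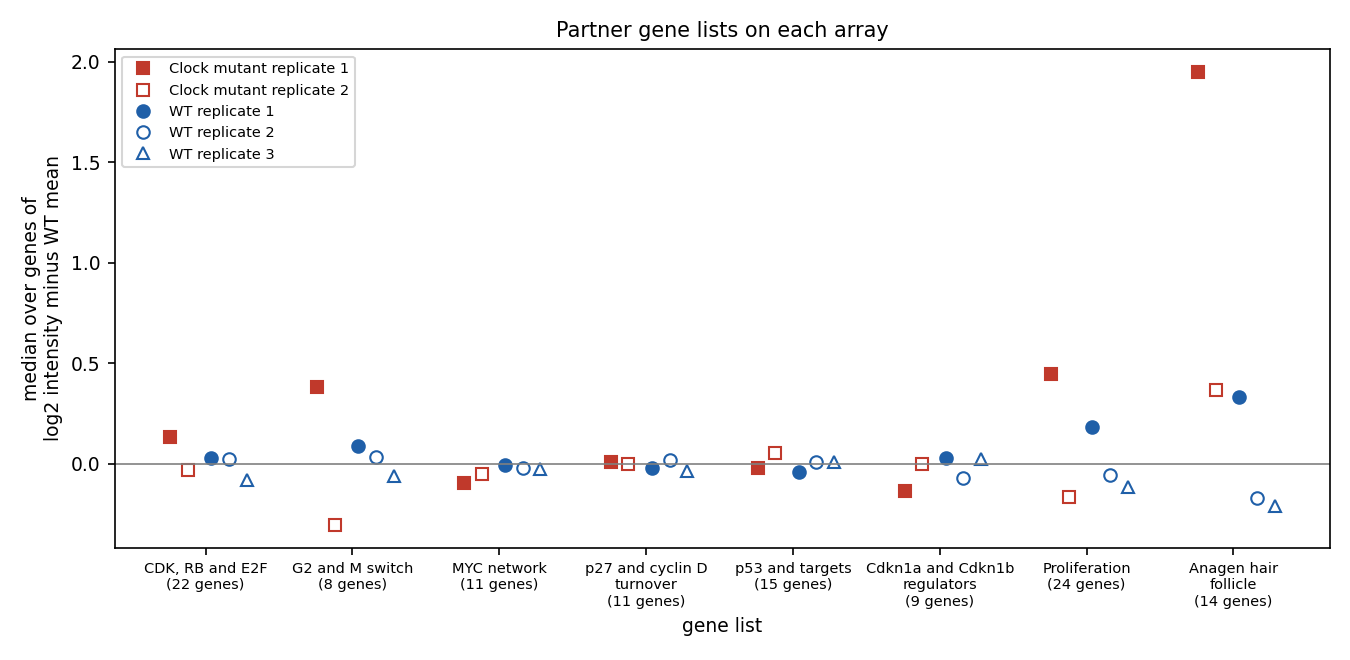
Median over the tested genes of a list of the log2 intensity minus the WT mean, on the vertical axis, for each array and 8 lists. Red squares are *Clock* mutant mice (filled, replicate 1; open, replicate 2) and blue symbols WT mice. *Clock* mutant replicate 1 lies highest for genes of the growing hair follicle (1.95) and for proliferation genes (0.45), and *Clock* mutant replicate 2 at 0.37 and -0.17.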

How the data were processed

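Labelled RNA made from 11 µg per mouse was hybridised to Affymetrix mouse arrays. The deposited intensities were made by the authors with MAS5, whose version is not given in the sources used here. Each array had a 2% trimmed mean of 500. Scanner files and detection calls were not used here.

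Intensities below 1 were set to 1 (2441 values) and log2 was taken. Probe sets whose mean log2 intensity was under the 40th percentile were left out (27022 kept), and *Clock* mutant was compared with WT with limma 3.58.1 in R 4.3.3 (empirical Bayes with an intensity trend, Benjamini-Hochberg adjustment over all probe sets kept, threshold 0.05). Positive differences mean higher in *Clock* mutant. Probe sets were named from the platform annotation updated through RefSeq (GRCm38.p6). Of 45037 probe sets other than controls, 34945 had 1 symbol, 932 several and 9160 none. Genes were taken at the probe set with the highest mean. Levels were not compared between probe sets. Every member is described, and of each list other than the cell type markers the up to 3 genes with the smallest p-values are named. Marker lists of other cell types are given by their medians. *Krt14*, *Col1a1*, *Krt25*, *Lef1*, *Foxn1*, *Dlx3*, *Gata3* and the markers under the filter are named as examples chosen after their values were seen. The members and the lists were chosen with earlier results of these data known.

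Replicates are separate mice, and their number, 2 and 3, limits the precision. On simulated data with these arrays' spread and 200 changed probe sets of 27022, 30.2% of changes of 0.5 on the log2 scale, 72.6% of 1 and 96.2% of 1.5 were recovered, with 14.4 false calls per run. Noise was drawn independently for each probe set and array. Variation shared by many genes within a mouse was not simulated, so these shares may be too high for the real arrays. Alternatives covered the scaling, filter, offset, prior, a Cyber-T style test, a replicate block and leaving out each array. All reuse the same arrays, and those of the filter, prior and test leave a probe set's difference unchanged. A further start-site sequence result is not reported here.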

Additional observations from a re-analysis of the deposited data

How the results depend on the processing

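Over all probe sets limma called 24 at an adjusted p of 0.05. The count was 10 with no intensity filter, 0 without the intensity trend (2631 at an unadjusted p under 0.05), 48 with the Cyber-T style test, and 0 to 201 when 1 array was left out. It was 13 without *Clock* mutant replicate 1, 201 without *Clock* mutant replicate 2, 20 without WT replicate 1 and 0 without WT replicate 2 or WT replicate 3 (1581 and 2194 at an unadjusted p under 0.05). Deviations of same-numbered mice correlated at 0.0078 and 0.0986. With 2 *Clock* mutants the deviations of one mirror those of the other, so these values are not independent. They cannot tell whether the replicate numbers pair mice, and the main fit had no block. With the number as a replicate block, 106 probe sets were called. WT replicate 3 is alone in its block there and adds nothing to the difference. That fit leaves 1 residual degree of freedom, so its calls lean on the empirical Bayes prior. With that block 1 member was called, *Wee1* 1416773_at (-0.84, adjusted p = 0.0227; its adjusted p over the alternatives ran up to 0.552), 4 members had an unadjusted p under 0.05 in place of 2, and 5 list genes were called in place of 0. No member was called under the other alternatives. Leaving out 1 array gave 1 to 5 members at an unadjusted p under 0.05 (2 without *Clock* mutant replicate 1, 5 without *Clock* mutant replicate 2, 3 without WT replicate 1, 1 without WT replicate 2, 4 without WT replicate 3), and 0 to 8 list genes at the adjusted threshold, 8 of them without *Clock* mutant replicate 2. The cause of these shifts was not tested. Without *Clock* mutant replicate 2, the only *Clock* mutant left was the male, and all WT mice were female. Genotype and sex cannot be told apart in that fit.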
